A study of Mus musculus with 6 samples.

Results

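Genes of phosphate handling and mineralization were followed in label-retaining and non-label-retaining chondrocytes of the mouse growth plate. They were chosen by name, 10 of the 23159 genes in the count table: the phosphate transporters *Slc20a1* and *Slc20a2*, the pyrophosphate genes *Enpp1*, *Ank* and *Ppa1*, the phosphatases *Alpl* and *Phospho1*, and the matrix proteins *Mgp*, *Spp1* and *Ibsp*. All 10 had a row in the table and 9 passed the filter on low counts, the exception being *Phospho1*. RNA came from 6 libraries, 1 of label-retaining chondrocytes (LRCs) and 1 of non-LRCs in each of 3 experiments, and each experiment pooled cells from several littermates. All mice were Col2-Q mice at postnatal day 49 (P49), homozygous for Col2a1-tTA inserted at Peli2, for TRE-H2B-GFP at Col1a1, for Col2a1-creER and for tdTomato at R26R. In these mice the *Col2a1* regulatory sequences drive the tetracycline-controlled activator that switches on H2B-EGFP, a fluorescent histone. They also drive the tamoxifen-dependent Cre that switches on tdTomato. In mice without the activator, the paper reports a low H2B-EGFP signal in osteoblasts and osteocytes, so H2B-EGFP does not depend on *Col2a1* activity alone. By flow cytometry it saw almost no GFP-positive cells without the activator. Both groups had received doxycycline from P21 to P49, which stops H2B-EGFP synthesis so that dividing cells lose the label, and tamoxifen at P46 and P47. CD45-negative, tdTomato-positive cells were sorted by H2B-EGFP, high for LRCs (about 10000 cells) and mid to low for non-LRCs (about 50000 cells). There was no group of untreated mice in this comparison.

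Mineral forms where phosphate and calcium reach a high enough level and where inhibitors are few. Pyrophosphate is the main small inhibitor: Enpp1 makes it outside the cell from nucleotide triphosphates, Ank (the progressive ankylosis protein) passes it or ATP out of the cell, tissue-nonspecific alkaline phosphatase (*Alpl*) hydrolyses it outside, and the cytosolic enzyme encoded by *Ppa1* hydrolyses it inside. In the growth plate, hypertrophic chondrocytes mineralize the matrix next to the metaphysis, while the resting zone is not mineralized.

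The promoters of the 3 genes that differed between the groups and of the matrix genes *Spp1* and *Ibsp* are shown first, for their base composition and the motif matches they hold. Each run holds the 250 bases before the RefSeq start of the gene, 5′ to 3′ on the gene's strand (GRCm38.p6), in lower case. Capitals mark matches on either strand to GGGCGG (the GC box), TATAAA (the TATA box), CCAAT (the CCAAT box), TGTGGT (the RUNX core) and CTTTGAT or CTTTGTT (bound by TCF/LEF factors). The stretches are *Ank* at chr15:27466427-27466676, *Slc20a1* at chr2:129198523-129198772, *Ppa1* at chr10:61648371-61648620, *Spp1* at chr5:104434861-104435110 and *Ibsp* at chr5:104299037-104299286, all on the plus strand. These RefSeq starts lie 0 to 116 bases from the GENCODE starts given below, farthest for *Ibsp*.
*Ank*: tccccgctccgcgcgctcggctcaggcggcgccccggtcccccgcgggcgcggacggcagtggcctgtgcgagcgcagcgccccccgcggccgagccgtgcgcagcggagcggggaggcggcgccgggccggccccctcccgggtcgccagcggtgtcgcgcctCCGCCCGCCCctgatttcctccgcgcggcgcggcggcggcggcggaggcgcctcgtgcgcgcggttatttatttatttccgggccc
*Slc20a1*: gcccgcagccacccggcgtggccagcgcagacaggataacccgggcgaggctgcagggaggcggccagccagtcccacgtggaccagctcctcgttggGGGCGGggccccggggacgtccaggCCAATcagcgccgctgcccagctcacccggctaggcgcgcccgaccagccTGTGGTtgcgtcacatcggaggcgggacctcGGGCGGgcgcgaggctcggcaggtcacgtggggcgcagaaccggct
*Ppa1*: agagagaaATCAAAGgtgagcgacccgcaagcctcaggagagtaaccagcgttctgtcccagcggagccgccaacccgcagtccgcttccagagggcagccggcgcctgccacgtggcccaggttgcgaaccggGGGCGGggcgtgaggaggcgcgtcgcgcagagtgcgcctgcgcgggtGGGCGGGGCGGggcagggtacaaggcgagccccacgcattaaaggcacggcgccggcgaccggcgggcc
*Spp1*: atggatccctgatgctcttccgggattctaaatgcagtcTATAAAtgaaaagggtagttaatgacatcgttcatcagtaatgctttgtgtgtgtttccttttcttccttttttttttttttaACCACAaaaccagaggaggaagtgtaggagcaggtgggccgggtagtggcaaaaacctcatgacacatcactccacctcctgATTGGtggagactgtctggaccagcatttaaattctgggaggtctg
*Ibsp*: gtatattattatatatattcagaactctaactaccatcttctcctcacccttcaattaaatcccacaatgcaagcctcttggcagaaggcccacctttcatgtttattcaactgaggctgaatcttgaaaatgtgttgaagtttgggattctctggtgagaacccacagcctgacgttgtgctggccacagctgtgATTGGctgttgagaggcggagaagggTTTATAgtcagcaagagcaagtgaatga
The upper 3 are rich in G and C, with 81.2% GC and 49 CpG dinucleotides in *Ank*, 75.2% and 29 in *Slc20a1*, and 72.0% and 31 in *Ppa1*. *Spp1* and *Ibsp* each have 43.6% GC, with 3 and 2 CpG, where the median over 32851 RefSeq promoter windows of the same length is 52.4% GC and 6 CpG. Of the 10 genes, 8 had a promoter in the RefSeq table, all but *Slc20a2* and *Mgp*. Those not printed were also above the median, *Phospho1* with 75.6% GC and 34 CpG, *Alpl* with 68.4% and 20, and *Enpp1* with 61.2% and 17. A high GC share was thus not particular to the 3 genes that differed between the groups. A GC box stood in 6 of the 8 (32.7% of all promoters), a TATA box in 2, *Spp1* and *Ibsp* (12.4%), a CCAAT box in 4 (33.8%), a RUNX core in 3, *Enpp1*, *Slc20a1* and *Spp1* (14.0%), and a TCF/LEF match in 2, *Ppa1* and *Phospho1* (8.06%). These are matches of letters only, and binding was not measured.

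Total counts lay between 18943789 and 129559872 per library, and the smallest library was the LRC library of experiment 2, where 1731 of the 13728 genes tested had 0 counts. The sorted cells had the RNA of chondrocytes, with *Col2a1* at 7.0% to 17.4% of all counts. Markers of other cells were low but for 3 lists. Markers of osteoblasts and osteocytes summed to 1428 to 3141 CPM (reads of a gene per 1000000 counted, after TMM normalization) in LRCs and 927 to 2135 in non-LRCs, mostly *Col1a2*. Of the 7 tested in that list, 1 was a differentially expressed gene by the rule given below, *Col1a1*, named after its call was seen, with 154, 53.0 and 113 CPM in LRCs against 33.7, 8.20 and 23.3 in non-LRCs (log2 fold change 2.38, adjusted p = 0.015 in edgeR). Of the osteocyte markers, named to account for the list, *Dmp1* stood at 3.15 to 6.31 CPM in LRCs and 0 to 1.83 in non-LRCs. *Sost* was at 0 in all libraries. Log2 fold changes in this list went both ways, positive for 4 of the 7 tested and negative for 3. The negative ones were *Bglap* (-1.14), *Bglap2* (-1.48) and *Phex* (-0.89), none of them a DEG. *Bglap* and *Bglap2* are near-identical copies, so their values are uncertain. Markers of hypertrophic chondrocytes summed to 234 to 350 in LRCs and 451 to 1217 in non-LRCs. *Panx3* led this list in the mean over the 6 libraries and in non-LRCs (mean 283 CPM), but not in LRCs. There its mean was 25.2 CPM, below *Mmp13* (113) and *Runx2* (95.3), both named after their values were seen, among others. Markers of superficial articular and synovial cells, led by *Clu*, summed to 1878 to 4095 in LRCs and 387 to 609 in non-LRCs. The paper reports RNA of *Prg4*, a marker in this list, at a low level in the resting zone. It also reports that nearly all tdTomato-positive cells released by its digestion came from the growth plate. Whether these markers came from the LRCs themselves was not tested. Osteoclast and macrophage markers were at 115 to 142 and 111 to 174 CPM, mostly *Ctsk*, leukocyte and erythroid markers, led by *Hbb-bs*, at no more than 12.1, muscle markers, led by *Tnni2*, at no more than 43.0 and endothelial markers, led by *Pecam1*, at no more than 0.681.

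Among the 9 genes tested, 3 were differentially expressed genes (DEGs, an adjusted p below 0.05 in edgeR's quasi-likelihood test with the experiment as a block, and at least a 2-fold change). *Ank* and *Slc20a1* were upregulated in LRCs, and *Ppa1* was downregulated. Over all genes tested, 1.21% were DEGs, 0.874% upregulated and 0.335% downregulated in LRCs. The unadjusted p was below 0.05 for 5 of the 9, where 18.4% of all genes tested had such a p. CPM of the groups did not overlap for 4 of the 9 (18.7% of all genes tested), namely the 3 DEGs and *Alpl*. With *Slc20a2*, these made 5 genes that moved the same way in all 3 experiments (46.5% of all genes tested). The median log2 fold change, LRCs over non-LRCs, was -0.0035 over the 9 and -0.10 over all 13728 genes. In bulk libraries, fewer cells that express a gene and less RNA of it per cell cannot be told apart.

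**Figure D1:**
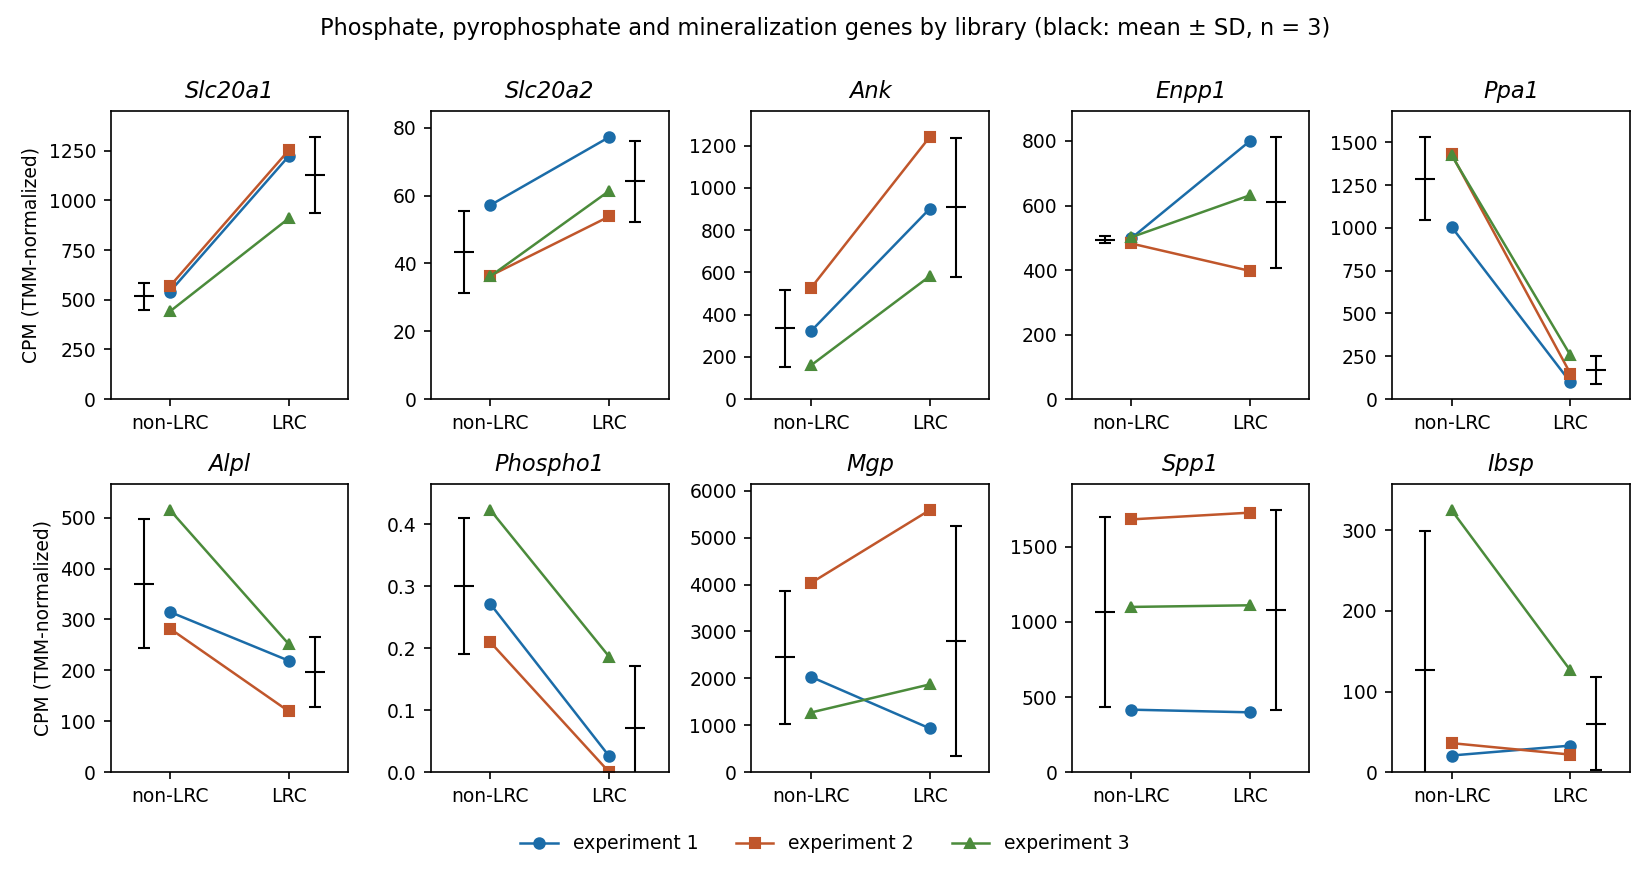
CPM of each of the 10 genes in non-LRCs (left) and LRCs (right), with lines joining the libraries of 1 experiment and black bars for the mean ± SD (n = 3, cut off at 0). The LRC point is the higher one in all 3 experiments for *Slc20a1*, *Slc20a2* and *Ank* and the lower one for *Ppa1*, *Alpl* and *Phospho1*, and the lines of *Spp1* are flat at 3 separate heights.

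*Slc20a1* encodes PiT-1, a sodium-dependent phosphate transporter of the cell surface (GRCm38, GENCODE vM21 chr2:129198764-129211616, plus strand). Its level in experiments 1, 2 and 3 was 1222, 1252 and 909.6 in LRCs and 541, 569 and 442 CPM in non-LRCs. Every LRC library lay above every non-LRC library, and the 3 within-experiment differences, 1.18, 1.14 and 1.04 on the log2 scale, were close to each other. The fitted change was 2.17-fold (log2 fold change 1.12, SE 0.14, 95% interval 0.78 to 1.45, adjusted p = 0.033).

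*Slc20a2* encodes PiT-2, the other transporter of this family (chr8:22476788-22569612, plus strand). LRCs had 77.3, 53.9 and 61.4 CPM and non-LRCs 57.2, 36.4 and 36.3 CPM. The LRC library was the higher one in each experiment, but the groups overlapped, since the non-LRC library of experiment 1 exceeded the LRC library of experiment 2. Its log2 fold change was 0.59 (SE 0.16, 95% interval 0.19 to 0.98) and did not pass the test (adjusted p = 0.14). Within a library, reads of *Slc20a1* outnumbered those of *Slc20a2* 14.8 to 23.2 times in LRCs and 9.46 to 15.6 times in non-LRCs. Of the other phosphate transporters, *Slc34a1* and *Slc34a3*, the transporters of the renal tubule, were at 0 in all libraries, *Slc34a2* was too low to test, and *Xpr1*, the phosphate exporter, differed in direction between experiments (log2 fold change -0.60, adjusted p = 0.54).

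*Ank* (chr15:27466677-27594909, plus strand) was upregulated 2.89-fold in LRCs. It stood at 901, 1241 and 582 in LRCs and at 321, 525 and 159 CPM in non-LRCs. Both groups followed the same order of experiments, with experiment 2 highest and experiment 3 lowest, and the lowest LRC library still exceeded the highest non-LRC library. The within-experiment differences were 1.49, 1.24 and 1.87 on the log2 scale, with a fitted log2 fold change of 1.53 (SE 0.17, 95% interval 1.11 to 1.96, adjusted p = 0.027).

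*Enpp1* makes extracellular pyrophosphate (chr10:24637914-24712159, minus strand). Non-LRCs held it at a nearly constant 498, 482 and 502 CPM. In LRCs it ranged from 397 to 800 CPM, with 800.0, 397 and 632 in experiments 1, 2 and 3, so that the LRC library of experiment 2 lay below its partner and the other two above theirs. The fitted change was 0.25 on the log2 scale (SE 0.21, 95% interval -0.27 to 0.76, adjusted p = 0.59). The 2 other genes listed for pyrophosphate supply, *Enpp3* and *Abcc6*, were at 11.6 CPM or less in every library and neither passed the test.

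*Ppa1*, which splits pyrophosphate in the cytosol (chr10:61648552-61674168, plus strand), had the largest change of the 9 genes tested. LRCs held 99.0, 149 and 257 CPM and non-LRCs 1006, 1430 and 1424 CPM. Every LRC library lay far below every non-LRC library, and experiment 3 had the smallest difference (-2.47 on the log2 scale, against -3.34 and -3.26). The level was 8.15-fold lower in LRCs (log2 fold change -3.03, SE 0.23, 95% interval -3.58 to -2.47, adjusted p = 0.015). The mitochondrial counterpart *Ppa2* stood at 8.01, 3.44 and 6.70 in LRCs and 9.93, 14.6 and 14.7 CPM in non-LRCs, and its log2 fold change of -1.16 did not pass the test (adjusted p = 0.23).

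The calls of *Ank*, *Slc20a1* and *Ppa1* rest on the pairing of libraries by experiment. Without the block the adjusted p was 0.38 for *Ank*, 0.21 for *Slc20a1* and 0.062 for *Ppa1*. With experiment 1 left out, *Ppa1* remained a DEG (adjusted p = 0.015) while *Ank* and *Slc20a1* kept log2 fold changes of 1.55 and 1.09 with adjusted p of 0.070 and 0.12. Of the 9 superficial articular and synovial markers, 6 were upregulated in LRCs like *Ank* and *Slc20a1*, and of the 7 hypertrophic markers, 2 (*Panx3* and, named after its call was seen, *Mef2c*) were downregulated like *Ppa1*. Of the 7 osteoblast and osteocyte markers tested, 1 was also upregulated, *Col1a1*. Whether these markers came from other cells, and their part in the results, was not tested.

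*Alpl* (chr4:137741733-137796384, minus strand) encodes the phosphatase that removes pyrophosphate and frees phosphate at the cell surface and on matrix vesicles. LRCs held 219, 119 and 251 CPM and non-LRCs 315, 282 and 515 CPM. All LRC libraries lay below all non-LRC libraries, and the within-experiment differences were -0.52, -1.24 and -1.03 on the log2 scale. Its log2 fold change of -0.93 (SE 0.18, 95% interval -1.37 to -0.49) had an adjusted p of 0.075 and was short of the 2-fold limit, so *Alpl* met neither condition of a DEG. With DESeq2, limma-voom and at least 10 counts in every library the adjusted p was 1.047e-04, 0.0057 and 0.021, and the fold limit alone kept it from being called. The hypertrophic marker sum was also lower in LRCs in each experiment, and its part in this difference was not tested. Of its 7 genes, 6 had negative log2 fold changes and 1, *Runx2*, a positive one (0.50). *Mmp13* was higher in LRCs in experiment 1 (165 against 78.0 CPM). Both genes were named after their values were seen.

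*Phospho1*, a phosphatase of matrix vesicles that frees phosphate from phosphocholine and phosphoethanolamine (chr11:95824499-95832140, plus strand), had 3, 0 and 8 counts in LRCs and 28, 8 and 21 in non-LRCs. These counts correspond to at most 0.186 in LRCs and 0.209 to 0.423 CPM in non-LRCs. The 0 in the LRC library of experiment 2 allows up to 0.143 CPM, the value of 3 counts there, and covers counting error only. The gene was filtered before the test, and without the filter its log2 fold change was -2.84 (SE 1.93, adjusted p = 0.59). In GENCODE vM21, 1818 of its 2029 exon bases are shared with *Zfp652* on the same strand and 1708 with *Abi3* on the opposite strand. Only reads that mapped to 1 gene unambiguously were counted, so the level of *Phospho1* is uncertain.

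*Smpd3*, a neutral sphingomyelinase that releases phosphocholine and is needed for mineralization of cartilage and bone, was listed with this step. It stood at 218, 83.6 and 500 in LRCs and at 689, 393 and 1567 CPM in non-LRCs. Each LRC library had less than its partner, although the LRC library of experiment 3 exceeded the non-LRC library of experiment 2. *Smpd3* was downregulated in LRCs with a log2 fold change of -1.85 (SE 0.18, adjusted p = 0.019), though without the block the adjusted p was 0.49. The hypertrophic marker sum, though not every gene in it, moved with *Smpd3*, and its part was not tested.

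**Figure D2:**
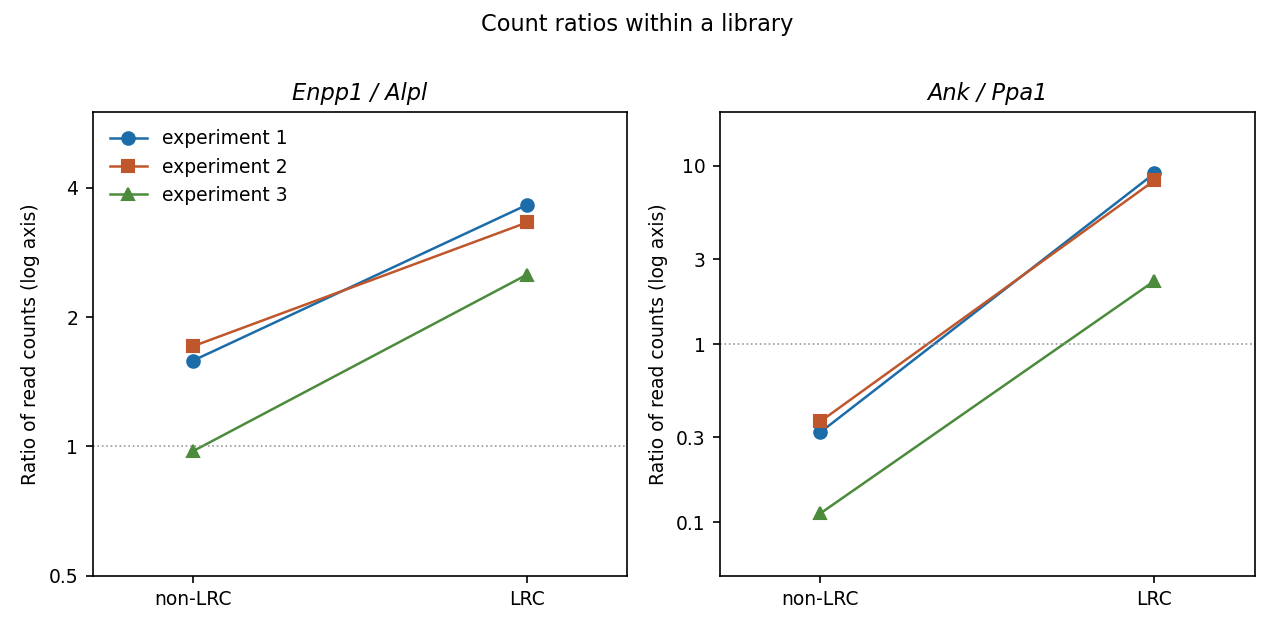
Ratio of the read counts of *Enpp1* to *Alpl* (left) and of *Ank* to *Ppa1* (right) within each library, on log axes, with lines joining the libraries of 1 experiment. Both ratios are higher in the LRC library of each experiment, and *Ank* reads exceed *Ppa1* reads in every LRC library and in no non-LRC library.

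Ratios of counts within a library do not depend on the scaling between libraries, and those given here were chosen after the levels were seen. Reads of *Enpp1*, which makes extracellular pyrophosphate, to those of *Alpl*, which removes it, stood at 3.66, 3.33 and 2.51 in LRCs and at 1.58, 1.71 and 0.975 in non-LRCs. The ratio was above 1 in 5 of the 6 libraries and did not overlap between the groups, as *Alpl* alone did not. Reads of *Ank* to those of *Ppa1* stood at 9.10, 8.30 and 2.26 in LRCs and at 0.319, 0.367 and 0.112 in non-LRCs. Since *Ank* and *Ppa1* were DEGs of opposite direction, this gap follows from those results and is no further test. Experiment 3 had the lowest value of both ratios in both groups. These ratios describe reads of unequally long RNAs and not enzyme activity.

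*Mgp* encodes matrix Gla protein, an inhibitor of cartilage and vessel calcification that needs vitamin K-dependent carboxylation (chr6:136872435-136875823, minus strand). It varied more between experiments than between groups, at 935, 5588 and 1871 in LRCs and 2034, 4033 and 1272 CPM in non-LRCs. The LRC library was lower than its partner in experiment 1 (-1.12 on the log2 scale) and higher in experiments 2 (0.47) and 3 (0.56). The fitted log2 fold change was -0.02 (SE 0.35, 95% interval -0.88 to 0.84, adjusted p = 0.98), an interval that leaves room for changes of nearly 2-fold either way.

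Of the 6 other genes of the Gla protein and circulating inhibitor list, 5 were tested, and *Vkorc1* was a DEG. This subunit of the vitamin K epoxide reductase, which recycles the cofactor of carboxylation, was at 91.4, 176 and 119 in LRCs and 211, 348 and 210.0 CPM in non-LRCs. Each LRC library had less than its partner and also less than every non-LRC library. The log2 fold change was -1.003 (SE 0.15, adjusted p = 0.046), on the border of the 2-fold limit, and with DESeq2, and with DESeq2's size factors in edgeR, it was -0.99 and no longer counted as a DEG. Without experiment 1 its adjusted p was 0.19, and without the block 0.40. Of its 840 exon bases, 401 are shared with a longer gene model on the same strand. The carboxylase itself, *Ggcx*, had a log2 fold change of -0.01 (adjusted p = 0.99), a value looked up after the call of *Vkorc1* was seen.

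*Spp1* encodes osteopontin, an acidic phosphoprotein that inhibits crystal growth (chr5:104435118-104441050, plus strand). LRCs held 398, 1728 and 1111 CPM and non-LRCs 416, 1683 and 1100.0 CPM in experiments 1, 2 and 3. Libraries of 1 experiment thus stood almost level, with differences of -0.06, 0.04 and 0.01 on the log2 scale, while the highest and lowest experiments differed 4.34-fold within LRCs and 4.04-fold within non-LRCs. The fitted log2 fold change was -0.0035 (SE 0.14, 95% interval -0.33 to 0.33, adjusted p = 0.99).

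*Ibsp* encodes bone sialoprotein, which binds hydroxyapatite and is made by hypertrophic chondrocytes and osteoblasts (chr5:104299171-104311469, plus strand). Most of its signal came from experiment 3, with 32.9, 21.8 and 126 in LRCs and 20.7, 36.0 and 325 CPM in non-LRCs. In experiment 1 the LRC library was the higher one, in experiments 2 and 3 the lower one. Its fitted log2 fold change was -0.48 (SE 0.39, 95% interval -1.43 to 0.46, adjusted p = 0.57). Left out in turn, experiment 1 moved it to -1.05 and experiment 3 to -0.0011, neither past the threshold. *Col10a1*, the collagen of hypertrophic chondrocytes, was likewise highest in experiment 3, with 76.0 in LRCs and 264 CPM in non-LRCs against no more than 15.7 CPM in the other 4 libraries. It was singled out after its values were seen, and its relation to *Ibsp* was not tested.

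*Ibsp* and *Spp1* lie in a row of 5 acidic bone and tooth matrix genes on the plus strand, *Dspp*, *Dmp1*, *Ibsp*, *Mepe* and *Spp1*, that spans 270.3 kb (chr5:104170712-104441050). Their levels ran from 0 in every library for *Dspp*, the dentin gene, to 1728 CPM for *Spp1*. *Dmp1*, an osteocyte gene, was at no more than 6.31 CPM and *Mepe* at no more than 1.05 CPM. Of the 6 listed genes of acidic matrix proteins and their processing, 4 were tested and none was a DEG. The lowest p of that list was that of *Fam20c*, the Golgi kinase that phosphorylates osteopontin and related proteins, with 254, 230 and 189 in LRCs and 128, 142 and 121 CPM in non-LRCs. Its groups did not overlap, but the log2 fold change of 0.78 did not pass the test (adjusted p = 0.070). The osteocalcin genes are near-identical copies. Only unambiguous reads were counted, so reads that match more than 1 copy may have been left out. The values of these genes are therefore uncertain. All 3 had negative log2 fold changes and none was a DEG, and *Bglap2*, with the lowest p, had a log2 fold change of -1.48 (adjusted p = 0.12).

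**Figure D3:**
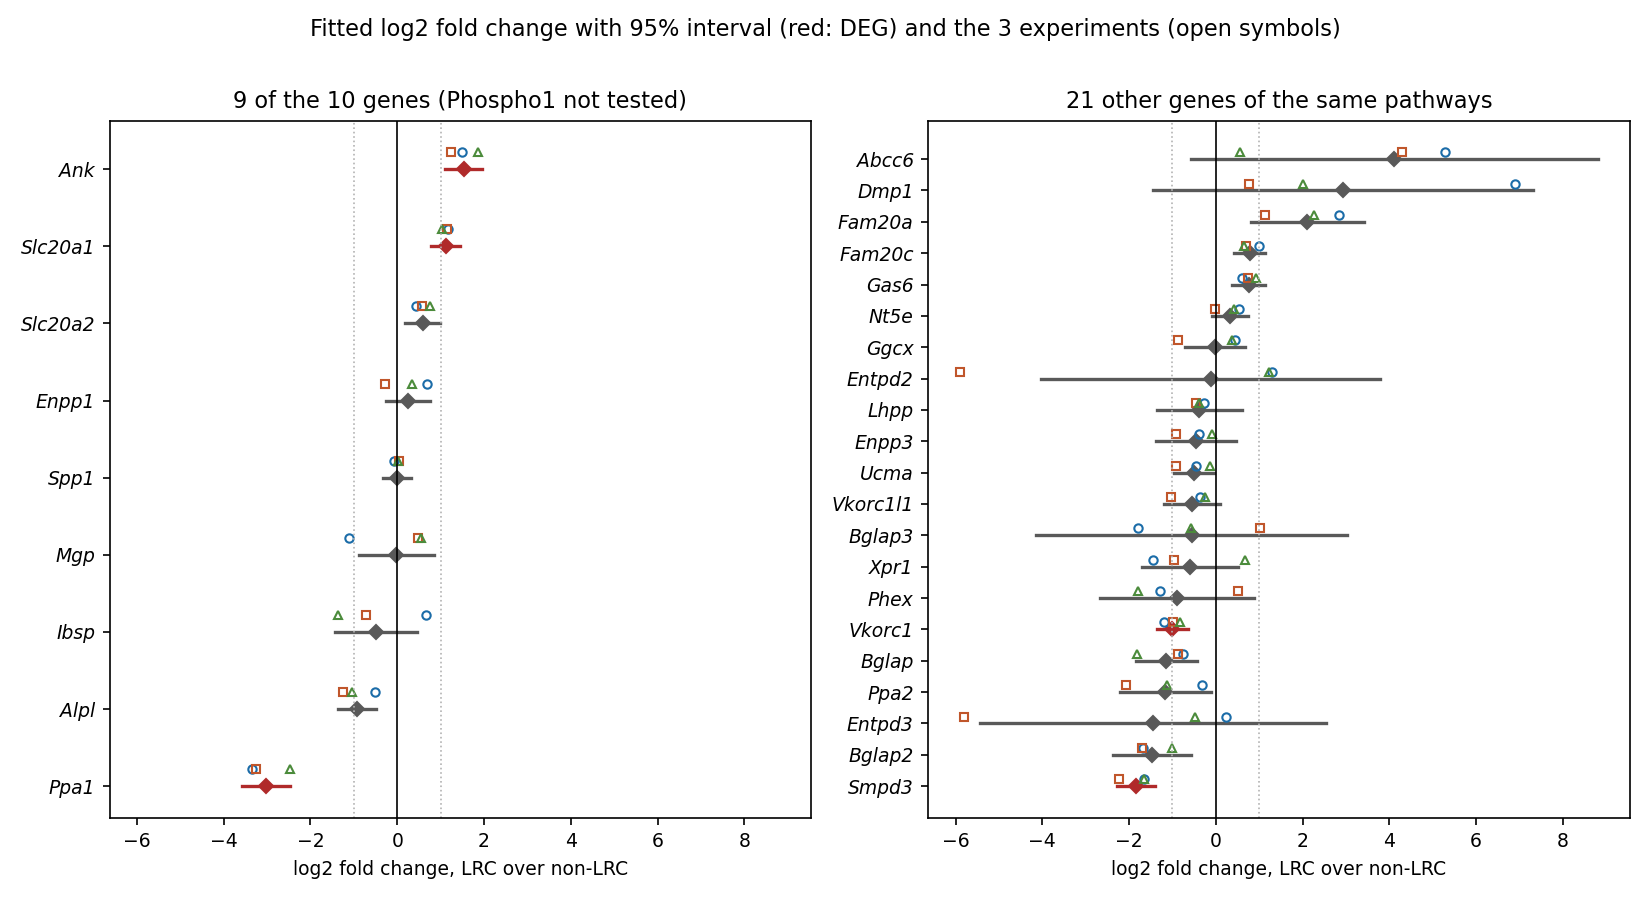
Fitted log2 fold change (diamonds, with 95% intervals, LRCs over non-LRCs, DEGs in red) of the 9 genes tested and of 21 other genes of the same pathways. Open symbols give the difference in experiment 1 (circles), 2 (squares) and 3 (triangles), and dotted lines mark the 2-fold limits. The 3 red points on the left are *Ank*, *Slc20a1* and *Ppa1*, and those on the right *Vkorc1* and *Smpd3*.

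In all, 28 other genes were listed for pyrophosphate supply and breakdown, phosphate release and transport, Gla proteins and acidic matrix proteins, and 21 passed the filter. Both DEGs among them, *Smpd3* and *Vkorc1*, were downregulated in LRCs, beside the 0.335% given above for downregulated genes among all tested. This one direction did not hold in every setting: DESeq2 called 3 upregulated and 3 downregulated, and limma-voom, like the restriction to genes with 10 or more counts in each library, 1 upregulated and 3 downregulated. The log2 fold change was negative for 15 and positive for 6, with a median of -0.51 against -0.10 over all genes tested. *Nt5e*, the ectonucleotidase that makes adenosine from AMP, had the highest CPM of the 28, at 2236 to 3568. This value was not divided by the length of the gene's exons, so it does not rank abundance. Its log2 fold change of 0.32 did not pass the test (adjusted p = 0.39). *Nt5e* was named after its level was seen.

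**Figure D4:**
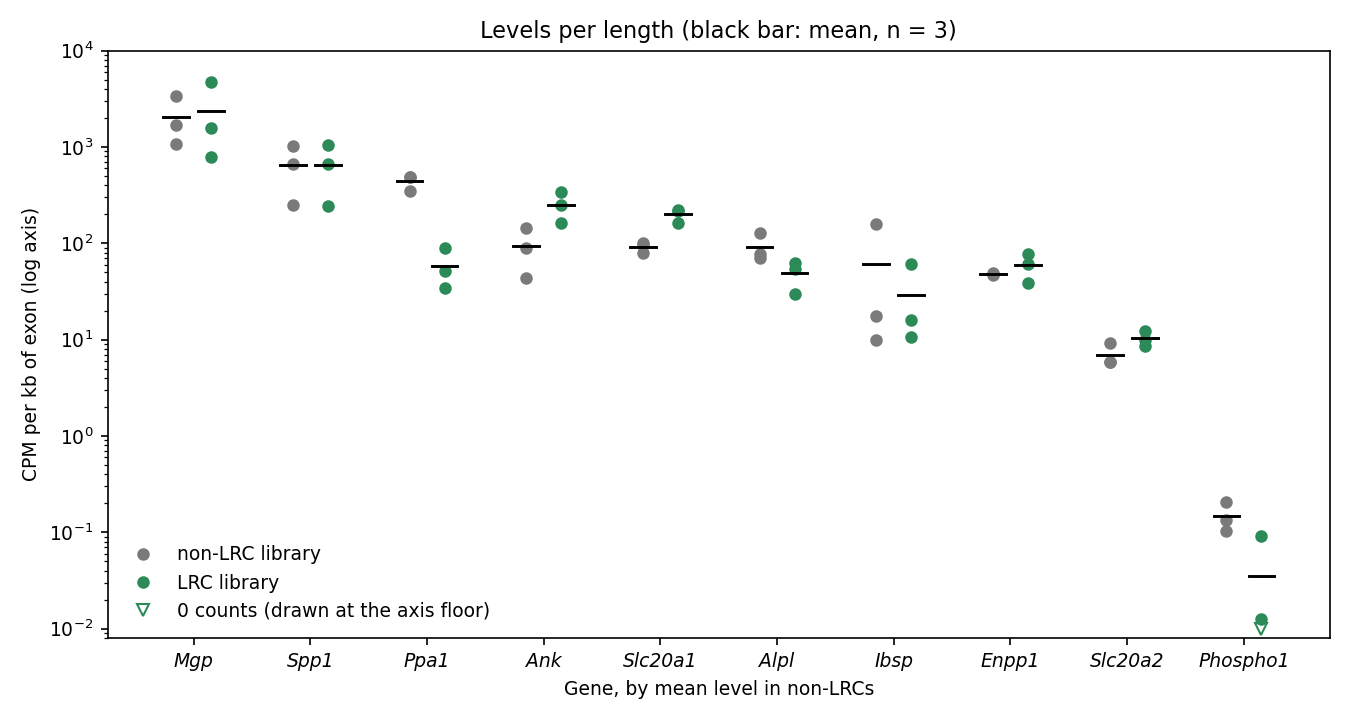
Level per length of each gene (CPM per kb of merged exons, log axis) in the non-LRC and LRC libraries (points), with the mean of 3 libraries as a black bar. *Mgp* and *Spp1* stand highest in both groups, *Phospho1* lowest, and *Ppa1* moves from rank 3 in non-LRCs to rank 6 in LRCs.

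Levels of different genes were compared as CPM per kb of merged exons. In non-LRCs *Mgp* led with 2061 ± 1201 CPM per kb (SD, n = 3), followed by *Spp1* with 647 ± 385 and *Ppa1* with 443 ± 83.9, the last pair overlapping. *Ank* (92.8 ± 50.8), *Slc20a1* (92.7 ± 12.0) and *Alpl* (91.8 ± 31.2) stood together, and their libraries overlapped. *Ibsp* (61.5 ± 82.9) and *Enpp1* (48.2 ± 1.01) came next, with *Ibsp* set by experiment 3, then *Slc20a2* at 6.96 ± 1.94 and *Phospho1* at 0.148 ± 0.054.

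In LRCs *Mgp* (2357 ± 2073 CPM per kb) and *Spp1* (655 ± 404) again led and overlapped each other. *Ank* at 251 ± 91.3 and *Slc20a1* at 202 ± 34.0 followed, without a gap between their libraries, and *Spp1* also overlapped *Ank*, which it did not exceed in experiment 1 (242 against 249.6). *Enpp1* (59.4 ± 19.7), *Ppa1* (58.0 ± 27.8) and *Alpl* (48.7 ± 17.0) overlapped, and *Ibsp* stood at 29.2 ± 27.7, *Slc20a2* at 10.3 ± 1.92 and *Phospho1* at 0.0348 ± 0.0497. With the length of the longest transcript in place of merged exons, *Ppa1* moved above *Spp1* in non-LRCs (899 against 708 CPM per kb) and *Slc20a1* above *Ank* in LRCs (340 against 260).

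The genes whose log2 CPM followed that of *Ank*, *Ppa1*, *Slc20a1* and *Alpl* most closely over the 6 libraries were looked up among 8078 genes of sufficient level, as a description, since all points share the split into groups and the libraries' depths. They were *Ythdf2*, *Ddah1* and *Bcl2l11* for *Ank* (Pearson r = 0.991 to 0.994), *Cdk4*, *Pkdcc* and *Cox4i2* for *Ppa1* (0.996 to 0.997), *Zfp207*, *Slc22a4* and *Foxp1* for *Slc20a1* (0.994 to 0.998), and *Ccng1*, *Ate1* and *Pid1* for *Alpl* (0.993 to 0.996). Among these 12, *Cox4i2* (log2 fold change -2.89, adjusted p = 0.015), *Slc22a4* (1.23, 0.031) and *Foxp1* (1.51, 0.037) were DEGs themselves.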

How the data were processed

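RNA-seq of 3 LRC and 3 non-LRC libraries was analysed. Per the labels and methods, the authors amplified complementary DNA, sequenced single-end reads, aligned them with TopHat2 2.0.13 and Bowtie2 2.2.1 to mm10 (GRCm38), and deposited raw HTSeq counts of unambiguous reads per gene. The annotation and strand setting are not given in the sources used here. They also deposited a normalized signal (counts over a size factor of DESeq2, which was checked) and log2 values from DESeq2's rlog, on which within-experiment differences of the 9 mineralization genes tested lay within 0.47 of those in log2 CPM.

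Groups and experiment numbers came from the sample labels. Counts were tested in R 4.3.3 with edgeR 4.0.16 (filterByExpr, minimum count 10 and total 15; TMM; quasi-likelihood test; prior count 0.125; Benjamini-Hochberg over 13728 genes), with the experiment as a block as in the study's paired model. The deviations of paired libraries from their group means correlated across genes with r of 0.197, 0.288 and 0.336. A prior count of 2 entered log2 CPM. In this paired model, p-values weigh the difference between LRCs and non-LRCs against a spread estimated with information shared across genes. It is not the gene's own spread over the 3 experiments alone. For *Spp1* the SD of the 3 paired differences was 0.053 and the SE of the model 0.14. The spread of levels between pools of littermates is taken up by the block. Within groups, the chi-square per gene was 162 or more, and no 2 libraries of the same group agreed within sampling noise. The code was also run on counts simulated from the fitted paired model, with known changes added. Such counts follow the model by design, so this checks the code and not how well the model holds for these data.

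The genes, lists and rules were chosen with earlier results of these data known. Named were the 10 genes, every DEG of the pathway lists and the lowest p of each pathway list with at least 3 tested genes. Added were the 3 genes most alike (mean log2 CPM of at least 3) to each of the DEGs and *Alpl*. Of each marker list, the gene of highest mean CPM over the 6 libraries was named, with *Col2a1*, and *Prg4* because the paper examined it. Any other gene is said to have been chosen after its values were seen or is listed to account for its pathway list. Older symbols were matched through gene name tables, with 1 marker unmatched. Locations are from GENCODE vM21 and promoters from RefSeq. Alternatives were no block, DESeq2 1.42.0, DESeq2 size factors in edgeR, 2 other filters, limma-voom (limma 3.58.1), a prior count of 2, thinning to the smallest library, and each experiment left out.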

Additional observations from a re-analysis of the deposited data

How the results depend on the processing

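Direction and call of *Ppa1*, *Ank* and *Slc20a1* were the same in all alternatives but the following. Without the replicate block the number of DEGs among all genes fell from 166 to 1, that among the 9 genes tested from 3 to 0, and that among the other pathway genes from 2 to 0, and the log2 fold changes were 1.44 (*Ank*), 1.13 (*Slc20a1*) and -2.93 (*Ppa1*), so these calls depend on the pairing. DEGs over all genes numbered 799 with DESeq2, 434 with at least 10 counts in every library, and 621 with limma-voom, of which 164, 164 and 166 were shared with the 166. Leaving out 1 experiment at a time gave 35 to 555 DEGs, the lowest without experiment 1 and the highest without experiment 2. It left 1 to 3 of the 9 genes and 1 to 3 of the other pathway genes as DEGs, with *Ppa1* alone among the 9 without experiment 1. The log2 fold change then lay between 1.39 and 1.68 for *Ank* and between 1.09 and 1.18 for *Slc20a1*. The other pathway genes had 6 DEGs with DESeq2, 4 with at least 10 counts in every library, 4 with limma-voom, 1 with DESeq2's size factors and 1 after thinning, and *Vkorc1*, at the 2-fold limit, was a DEG in 6 of 11 alternatives, not with DESeq2, its size factors, thinning, no block or without experiment 1. *Ibsp* ranged from -1.05 to -0.0011 over the left-out experiments. The sign of the near-zero changes was not stable. *Mgp* went to 0.19 without the block and ranged from -0.30 to 0.51 over the left-out experiments, and *Spp1* went to 0.017 without the block, 0.0065 with DESeq2 and 0.0063 with its size factors, and ranged from -0.024 to 0.022. *Alpl* was not called under any alternative: its log2 fold change lay between -1.14 and -0.78 and its adjusted p between 1.047e-04 and 0.48. The LRC library of experiment 2, with 18943789 counts, limits what can be said of low genes such as *Phospho1*. With 3 pairs, the intervals above, not the p-values, show what sizes of change remain possible. In edgeR, each SE was the size of the log2 fold change over the square root of the quasi-likelihood F. Intervals and p-values thus came from the same test. Where not stated, the cause of a change between settings was not tested.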

Other observations

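*Spp1* was one of 37 genes among the 13728 tested whose LRC and non-LRC libraries differed by no more than 0.1 on the log2 scale in all 3 experiments. It was one of 2 of these 37 whose highest library exceeded the lowest at least 4-fold. The limits were set after the values of *Spp1* were seen, and the counts are a description with no test.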
